A study of Mus musculus with 6 samples.

Results

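Complement is a set of plasma and tissue proteins that tag particles and dying cells for uptake, and macrophages both make several of them and carry their receptors. Described here are 9 genes of that system: the chains of C1q (C1qa, C1qb and C1qc), the components C3 and C4b, factor B (Cfb), properdin (Cfp) and the anaphylatoxin receptors C3ar1 and C5ar1. They were taken by symbol from a table of 43432 genes, and all 9 were found and measured. The table holds 6 libraries of RNA from macrophages sorted out of the mammary glands of female FVB/N mice carrying the MMTV-PyMT transgene, 3 libraries at 8 weeks of age and 3 at 11 weeks. The transgene expresses polyomavirus middle T antigen from a mammary tumour virus promoter that is active mainly in mammary epithelium, so tumours arise in that epithelium and not in the macrophages. Every mouse carried it, so the ages compared stand for earlier and later tumours and no tumour-free group is included. The sorted cells were positive for CD45, MHC class II and CD14, and a dye for dead cells was in the stain. The labels number the libraries of each age without stating whether each came from its own animal or from a pool, so p-values measure the spread among these libraries only, and that spread may be technical. FVB/N mice are known to carry a defective allele of Hc, the gene of complement component C5, which limits them as a model of C5a signalling.

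The cascade can start in several ways. In the classical route C1q binds antibody-coated or dying cells, and its partner proteases cleave C4 and C2. In the alternative route factor B joins C3b, the product of C3 cleavage, to form an enzyme that cleaves more C3, and properdin holds that enzyme together. Cleavage of C3 and C5 releases the peptides C3a and C5a, which act through the receptors encoded by C3ar1 and C5ar1 on myeloid cells. Tissue macrophages are a known main source of C1q, while the liver makes most circulating C3 and C4.

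The sorted cells carried the defining macrophage markers in every library: 9 of 9, among them Csf1r at 54613 to 70989.5 normalized counts and Mrc1 at 79771.4 to 111150. Normalized counts are reads per gene divided by 1 factor per library, as deposited. Depth recovered from these values was 38784434 to 75004880 reads per library, of which mitochondrial genes took 38.5% to 56.7%. Ly6g and Elane of the neutrophil list were at 0.9 or below, but the neutrophil list as a whole (9 markers, 4 of them above 0 in every library) summed to 1430.7 to 3473.2 at 8 weeks and 4289.3 to 5680.5 at 11 weeks. Csf3r takes the largest part of that sum and overlapped between the ages. S100a8, S100a9 and Cxcr2 were higher at 11 weeks without overlap. The mammary epithelial list (10 markers, 8 above 0 in every library), in which the casein genes Csn3 and Csn2 take the largest part, summed to 7652 to 11239.1 at 8 weeks and 23772.7 to 45461.9 at 11 weeks. The fibroblast list (8 markers, 7 above 0 in every library) summed to 687.6 to 1080.6 and 1353.7 to 3075.1, and the endothelial list (5 markers, 3 above 0 in every library) to 404.6 to 543.1 and 674 to 1142.9. The endothelial markers were split. Cdh5 was higher at 11 weeks without overlap (14.5 to 70.4 against 123 to 569.2). Tek was lower without overlap (13.9 to 30.7 against 0 to 9.1). Kdr, Vwf and Pecam1 overlapped, with log2 differences of -1.40, -0.34 and 0.10. These 4 sums did not overlap between the ages, nor did the macrophage sum, at 264122 to 288715 and 289734 to 307635. The monocyte, conventional dendritic cell, T cell and B cell sums overlapped. Ccr2 takes the largest part of the monocyte sum, Cd209a of the dendritic cell sum and Cd4 of the T cell sum. The monocyte marker Vcan (426.7 to 677.3 against 714.7 to 2171.8) and the T cell marker Cd3e (5.1 to 117.8 against 170.1 to 345.8) were higher at 11 weeks without overlap. Zbtb46, Cd209a and Dpp4 of the dendritic cell list were lower without overlap. The rest of that list overlapped and had positive log2 differences: Kit (2.20), Ccr7 (0.68), Flt3 (2.71), Clec9a (0.14) and Xcr1 (2.71). In bulk RNA a change in the number of cells of a type and a change in RNA per cell cannot be told apart.

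**Figure D1:**
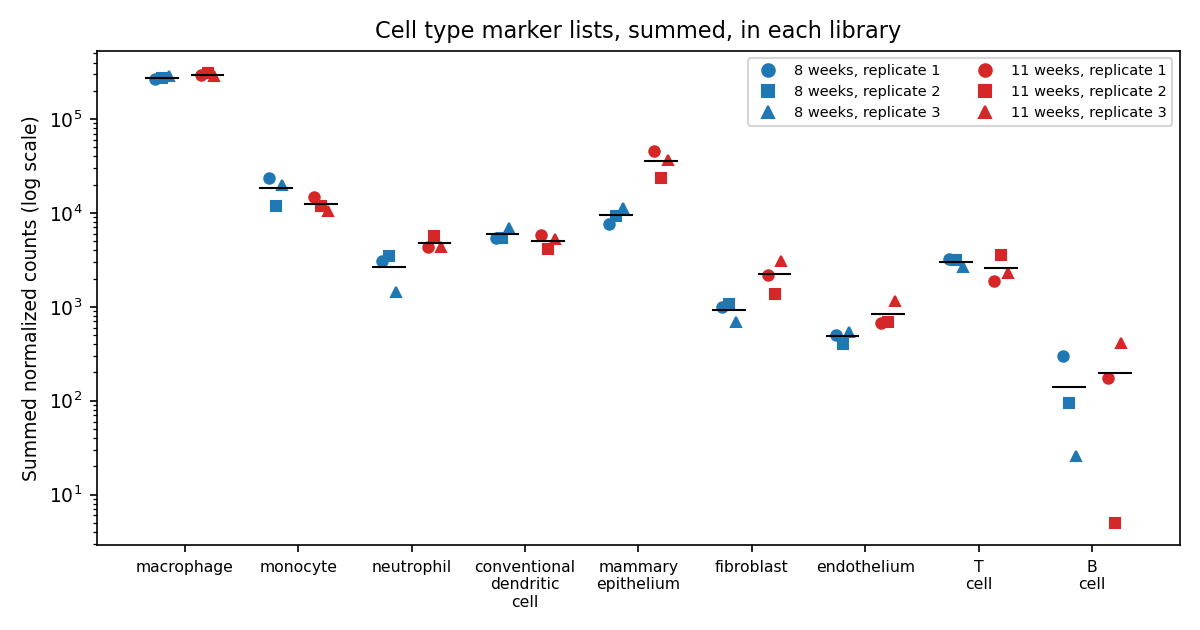
Summed normalized counts of each marker list (log axis) in the 3 libraries of 8 weeks (blue) and of 11 weeks (red), with the mean of each age as a bar. The mammary epithelial sums of 11 weeks (23772.7 to 45461.9) all lie above those of 8 weeks (7652 to 11239.1), while the macrophage sums stay between 264122 and 307635.

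The C1q chains are encoded side by side on chromosome 4, within 18675 bases of the GRCm38 assembly (136880129 to 136898803), in the order C1qb, C1qc, C1qa, all on the minus strand. C1qb (ENSMUSG00000036905) covers 136880129 to 136886187, C1qc (ENSMUSG00000036896) 136889804 to 136893065 and C1qa (ENSMUSG00000036887) 136895917 to 136898803, each with 3 exonic blocks in the GENCODE M21 annotation, and no other annotated gene lies in the region. Each chain has a collagen-like stalk made of repeated triplets that begin with glycine, coded by GGN. The longest unbroken run of such triplets in each reference coding sequence is printed 5′ to 3′ with the GGN codons in capitals, because it shows how alike the chains are in plan and how different in letters, which decides whether reads can be assigned to 1 chain.
C1qa, codons 62 to 109: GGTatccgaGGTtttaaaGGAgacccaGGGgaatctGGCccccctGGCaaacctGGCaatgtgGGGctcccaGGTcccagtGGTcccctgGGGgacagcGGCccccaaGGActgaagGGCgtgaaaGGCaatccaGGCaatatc
C1qb, codons 31 to 117: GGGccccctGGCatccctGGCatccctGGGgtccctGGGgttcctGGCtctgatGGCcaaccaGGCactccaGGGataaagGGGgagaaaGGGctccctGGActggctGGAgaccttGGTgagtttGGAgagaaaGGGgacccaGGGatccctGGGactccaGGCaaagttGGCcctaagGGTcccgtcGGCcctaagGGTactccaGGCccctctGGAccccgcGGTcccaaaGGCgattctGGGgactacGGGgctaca
C1qc, codons 68 to 115: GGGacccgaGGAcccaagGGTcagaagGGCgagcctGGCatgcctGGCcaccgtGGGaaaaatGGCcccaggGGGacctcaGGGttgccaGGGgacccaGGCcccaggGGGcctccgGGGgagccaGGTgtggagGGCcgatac
The run held 16 triplets in C1qa and in C1qc and 29 in C1qb. It stops where a triplet does not begin with GGN, so it need not cover the whole stalk, and stalk lengths were not compared. No stretch of 50 bases was shared between any pair of the chains, or between a C1q chain and the transcripts of any other annotated gene, so at that length reads of the chains are separable. The same held for C3, C3ar1, C5ar1 and Cfp.

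C4b and Cfb were less certain. Of the 50-base words in C4b transcripts 34.6% also occur in C4a, its near-identical neighbour on chromosome 17, which was itself at only 8.3 to 62.5 normalized counts. Of those in Cfb transcripts 73% also occur in Gm20547, an annotated gene that overlaps both Cfb and the adjacent C2. Gm20547 was listed at 0 in all 6 libraries, and 79.5% of the exonic bases of Cfb and 46.9% of those of C2 lie within its exons. The sources used here do not give how reads overlapping more than 1 gene were treated, and its part in the low values of Cfb and C2 was not tested.

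Per kilobase of mRNA the chains C1qb and C1qc were the most abundant members and Cfb the least. The mean over the 6 libraries was 51313 ± 6076 for C1qb, 44593 ± 5802 for C1qc, 13339 ± 3724 for C3ar1, 11270 ± 1756 for C5ar1, 9066 ± 1644 for C1qa, 7899 ± 1585 for Cfp, 2437 ± 747 for C4b, 361 ± 97.5 for C3 and 35.9 ± 23.1 for Cfb (normalized counts per kilobase, SD, n = 6). Neighbours in the order from C3ar1 to Cfp had overlapping ranges, as had C1qb and C1qc. Within libraries, by these lengths, C1qb was above C1qc and C5ar1 above C1qa in all 6. C3ar1 was above C5ar1, and C1qa above Cfp, in 5 of 6. C4b, C3 and Cfb were each separate from the gene above. Over only the exonic bases of Cfb outside Gm20547 its level was 73.7 to 380 per kilobase, which overlaps the 197 to 453 of C3. The level of C1qc also depends on the length used, though not its place in the order. Over all annotated exons of its 2 transcripts (1931 bases, against 1203 in the mRNA used), it was 22378 to 33083 per kilobase. That lay below the 45659 to 61640 of C1qb.

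None of the 9 genes passed an adjusted p of 0.05 between 11 and 8 weeks, and 0 of 9 had an unadjusted limma p under 0.05, where 8.03% of all genes tested had one. With limma on log2(normalized count + 1) the adjusted p over all 21675 genes tested ranged from 0.634 for C3ar1 to 0.994 for C1qc, against a background of 0.0507% of all genes called. On the recovered reads edgeR and DESeq2 also called 0 of the 9. Of all genes tested edgeR called 0.0646%, and DESeq2 called 2.63% of the 15874 genes it adjusted. All 9 passed the filter of a mean of at least 1 normalized count. The difference, 11 minus 8 weeks, was positive for 8 members and negative for Cfp, with a median of 0.29 on the log2 scale beside 0.05 over all genes tested, of which 52.8% were positive. Among the 4489 tested genes with a mean of at least 1000, a level that all members but Cfb reach, the median was -0.04. Of those genes 2009 were positive and 2480 negative. C1qb alone had values that did not overlap between the ages, higher at 11 weeks, where the same held for 6.81% of all genes tested (11.9% in either direction). The authors' deposited table gives no member an adjusted p under 0.05 either, with 0.494 for C3 and 0.534 for C3ar1 as the lowest, where it calls 1.91% of the genes it adjusted.

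**Figure D2:**
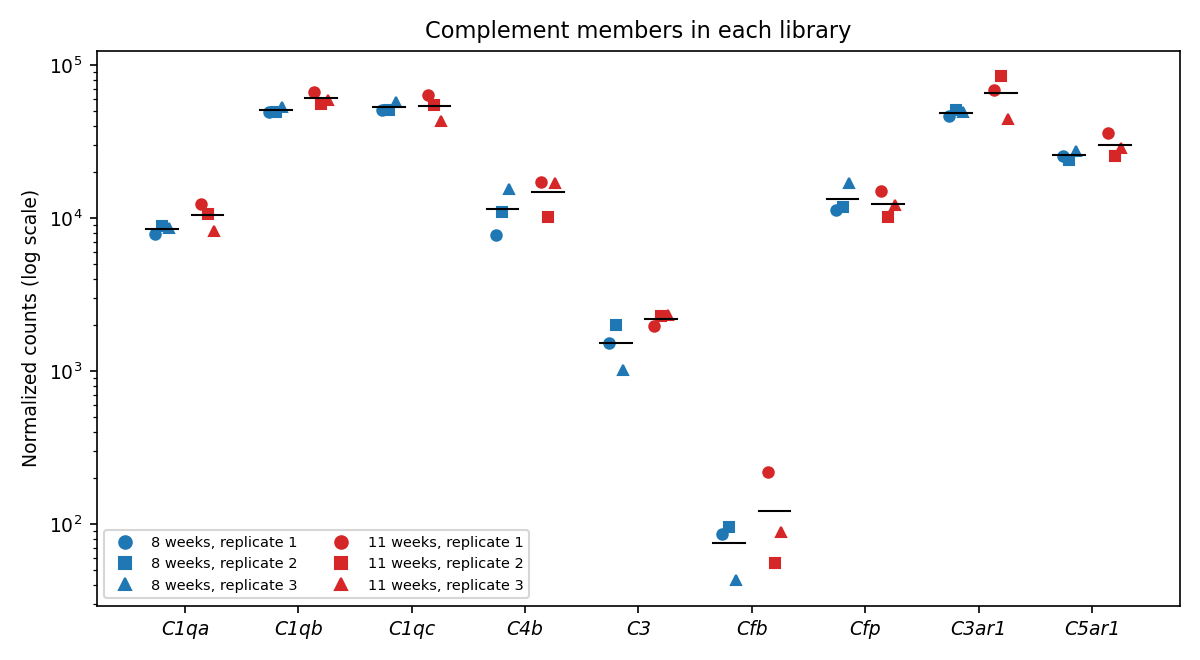
Normalized counts (log axis) of the 9 members in each library, 8 weeks in blue and 11 weeks in red, marker shape giving the replicate number and bars the mean of each age (n = 3). Only the C1qb values separate, at 49676.9 to 53270.9 against 56135.2 to 67064.2.

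C1qa encodes the A chain of C1q. It stood at 7833.9, 8874.7 and 8614.4 normalized counts in 8-week replicates 1 to 3 and at 12301.7, 10667.6 and 8279.5 in 11-week replicates 1 to 3. Both of the first 11-week replicates lay above all 8-week values, and replicate 3 lay among them. The log2 difference was 0.29 ± 0.19 (SE; limma adjusted p = 0.763), with a 95% interval from -0.12 to 0.69. It was 0.16 without 11-week replicate 1 and 0.44 without replicate 3. C1qb, the B chain, stood at 49735.4, 49676.9 and 53270.9 at 8 weeks and at 67064.2, 56135.2 and 59090.3 at 11 weeks. The 8-week libraries lay close together and below every 11-week library. On the log2 scale the difference was 0.25 ± 0.13 (SE; limma adjusted p = 0.653), with a 95% interval from -0.02 to 0.52. C1qc, the C chain, stood at 51248.5, 50976.3 and 57545.6 at 8 weeks and at 63883.7, 55005.1 and 43212 at 11 weeks. Here the 11-week libraries held both the highest and the lowest value. The log2 difference was 0.00 ± 0.15 (SE; limma adjusted p = 0.994), and its 95% interval from -0.31 to 0.32 spans 0.805-fold to 1.25-fold. Its sign turned with scaling to library totals (-0.083), with or without mitochondrial genes, and with TMM scaling.

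C1q is assembled from the chains in equal numbers, yet their RNA was far from equal. Per kilobase of mRNA C1qa made up 7.86% to 9.53% of the C1q RNA, C1qb 46.6% to 55.3% and C1qc 36.6% to 45.5%. The mRNAs used for these lengths have 1040, 1088 and 1203 bases and a GC content of 59.5%, 57.4% and 57.5%. The cause of the low share of C1qa was not tested. In counts, C1qb exceeded C1qa 5.26 to 7.14 times and C1qc exceeded C1qa 5.16 to 6.68 times. These ratios do not depend on how the libraries were scaled.

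The ratio of C1qc to C1qa was 6.54, 5.74 and 6.68 in the 8-week replicates and 5.19, 5.16 and 5.22 in those of 11 weeks. The ages did not overlap, and the 11-week libraries were nearly alike. The mean log2 ratio was 0.28 lower at 11 weeks (difference -0.28; exact two-sided permutation p = 0.1, the smallest that 3 against 3 libraries can give; adjusted p = 0.25 over the 5 ratios tested). C1qb to C1qa gave a difference of -0.03 (exact permutation p = 0.8, adjusted p = 1), which turned positive without 8-week replicate 1 and without 11-week replicate 1 or 2. Set against Csf1r, the receptor gene that marks the macrophage lineage, C1qa was at a ratio of 0.122, 0.125 and 0.122 at 8 weeks and 0.207, 0.187 and 0.152 at 11 weeks. All 11-week ratios were higher, by 0.55 on the log2 scale (exact permutation p = 0.1, the smallest possible; adjusted p = 0.25). Csf1r itself was at 68657 ± 3684 and 57054 ± 2478 normalized counts (mean ± SD over 3 libraries per age; limma adjusted p = 0.609), lower at 11 weeks without overlap, so the ratio reflects a lower mean of Csf1r as well as a higher mean of C1qa. Csf1r was the only macrophage marker of the 9 that was lower without overlap. Cd163, Fcgr1, Mrc1 and Cd14 were higher without overlap, by 0.47, 0.74, 0.30 and 0.63 on the log2 scale, each more than the 0.29 of C1qa, and ratios to them were not tested.

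**Figure D3:**
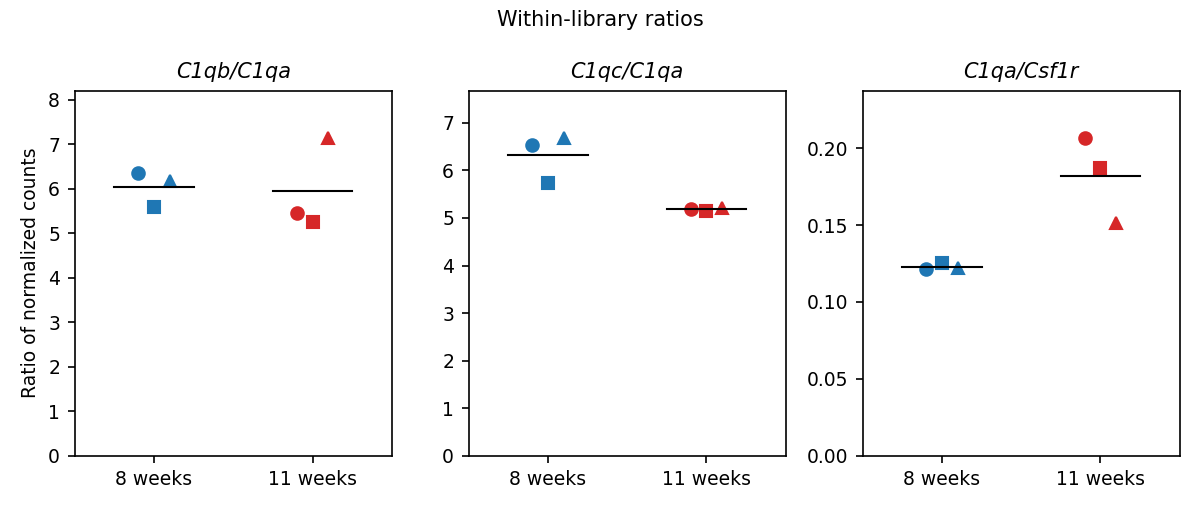
Ratio of normalized counts within each library (linear axes from 0), 8 weeks in blue and 11 weeks in red, with the mean of each age as a bar (n = 3). C1qc/C1qa (5.74 to 6.68 against 5.16 to 5.22) and C1qa/Csf1r (0.122 to 0.125 against 0.152 to 0.207) do not overlap between the ages, and C1qb/C1qa does.

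C4b encodes complement C4, whose cleaved form binds target surfaces in the classical and lectin routes (ENSMUSG00000073418; chromosome 17, 34728380 to 34743882, minus strand). It stood at 7701.1, 10954.2 and 15616.3 normalized counts in 8-week replicates 1 to 3 and at 17212.7, 10168.6 and 16995 in those of 11 weeks. The ages overlapped, since 11-week replicate 2 lay below 8-week replicates 2 and 3. On the log2 scale the difference was 0.39 ± 0.25 (SE; limma adjusted p = 0.747), with a 95% interval from -0.14 to 0.93. It was 0.14 without 8-week replicate 1 and 0.65 without 8-week replicate 3. Of the 11-week libraries, replicate 2 also had the lowest fibroblast sum (1353.7 against 2205.9 and 3075.1) and the lowest epithelial sum (23772.7 against 45461.9 and 36737). The part of those cells in the C4b values was not tested.

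C3, the central component cleaved in every route (ENSMUSG00000024164; chromosome 17, 57203970 to 57228136, minus strand), stood at 1529.2, 2007.4 and 1012.1 at 8 weeks and at 1955.7, 2280.3 and 2327.5 at 11 weeks. Only 8-week replicate 2 reached into the 11-week range. The log2 difference of 0.58 ± 0.29 was the highest of the members in limma with all libraries (SE; limma adjusted p = 0.648), and its 95% interval ran from 0.975-fold to 2.29-fold. With edgeR and DESeq2 Cfb was higher (0.68 and 0.70, against 0.52 and 0.53 for C3), and without 8-week replicate 3 C3 was at 0.32, below C4b and C3ar1. C3 is also made by mammary epithelium and fibroblasts, whose marker sums were higher at 11 weeks, and their part was not tested. Within the 11-week libraries C3 was lowest in replicate 1, where the epithelial sum was highest (45461.9), and highest in replicate 3, where the fibroblast sum was highest (3075.1). Replicate 2 had the lowest sum of both lists (23772.7 and 1353.7), with C3 at 2280.3, close to replicate 3.

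Cfb encodes the protease of the alternative route (ENSMUSG00000090231; chromosome 17, 34856374 to 34862518, minus strand). It stood at 86.5, 95.6 and 42.7 normalized counts at 8 weeks and at 219.8, 55.4 and 88.8 at 11 weeks, from 50 to 239 reads per library. The only library outside the 8-week range was 11-week replicate 1. The log2 difference was 0.53 ± 0.82 (SE; limma adjusted p = 0.868), with a 95% interval from -1.21 to 2.28, and it was -0.012 without 11-week replicate 1. A change of 4.85-fold up or to 0.432-fold therefore lies within the interval, and none was detectable at this level.

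Cfp encodes properdin (ENSMUSG00000001128; chromosome X, 20925454 to 20931555, minus strand). It stood at 11314.9, 11854.7 and 17078.5 normalized counts at 8 weeks and at 14960.9, 10099 and 12230.3 at 11 weeks. The ages overlapped throughout. On the log2 scale the difference was -0.10 ± 0.20 (SE; limma adjusted p = 0.904), with a 95% interval from -0.53 to 0.33, and its sign turned without 8-week replicate 3 (0.083) or 11-week replicate 2 (0.04). Among the members of the alternative route Cfp was thus abundant and Cfb low. C3 exceeded Cfb 17.7 to 23.7 times at 8 weeks and 8.9 to 41.2 times at 11 weeks (difference of mean log2 ratios 0.05; exact permutation p = 1, adjusted p = 1).

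C3ar1 encodes the C3a receptor (ENSMUSG00000040552; chromosome 6, 122847138 to 122856161, minus strand). It stood at 46233.1, 50664.6 and 49645.2 normalized counts at 8 weeks and at 68494.9, 85042 and 44461 at 11 weeks. In the first pair of 11-week replicates it was well above the narrow 8-week range, and in replicate 3 below it. The log2 difference was 0.39 ± 0.18 (SE; limma adjusted p = 0.634), with a 95% interval from -0.01 to 0.78, a change of up to 1.71-fold. Without 11-week replicate 3 the difference was 0.64 (limma adjusted p = 0.149), the lowest adjusted p of any member under any alternative. Without 11-week replicate 2 it was 0.18. Neutrophils also carry both anaphylatoxin receptors, and the neutrophil marker sum was highest in the library with the highest C3ar1, 11-week replicate 2 (5680.5 against 4289.3 and 4331.5 in replicates 1 and 3). C5ar1 was lowest of the 11-week libraries in that same replicate. The part of neutrophils in either receptor was not tested.

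C5ar1 encodes the C5a receptor (ENSMUSG00000049130; chromosome 7, 16246743 to 16259540, minus strand). It stood at 25603.3, 24057.1 and 27534.4 at 8 weeks and at 36199.1, 25621.5 and 28749.4 at 11 weeks. Replicates 1 and 3 of 11 weeks were above every 8-week value, and replicate 2 was within their range. On the log2 scale the difference was 0.22 ± 0.16 (SE; limma adjusted p = 0.786), with a 95% interval from -0.12 to 0.55. It was 0.079 without 11-week replicate 1 and 0.33 without replicate 2. The receptors did not peak in the same library: C3ar1 was highest in 11-week replicate 2 and C5ar1 in replicate 1. The ratio of C3ar1 to C5ar1 was 1.80 to 2.11 at 8 weeks and 1.89, 3.32 and 1.55 in 11-week replicates 1 to 3 (difference 0.17 on the log2 scale, -0.15 without 11-week replicate 2; exact permutation p = 0.8, adjusted p = 1). RNA of Hc, whose product is the source of C5a, was at most 58 normalized counts and listed at 0 in 1 library.

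**Figure D4:**
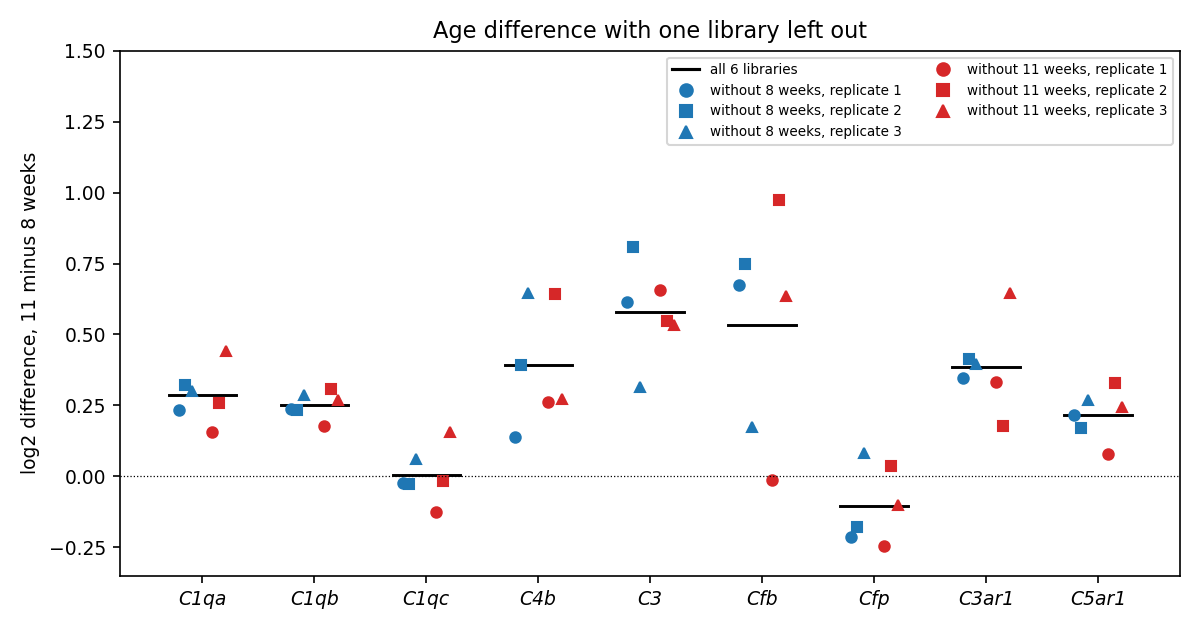
Difference of mean log2(normalized count + 1), 11 minus 8 weeks, for each member with all 6 libraries (bar) and with each library left out in turn (points, colour giving the age and shape the replicate left out). C1qa, C1qb, C4b, C3, C3ar1 and C5ar1 stay above 0 in all of these, while C1qc, Cfb and Cfp cross it.

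The rest of the complement system was followed through 47 further genes found in the table, of which 36 were tested. None passed an adjusted p of 0.05. Of the 36 differences 23 were positive and 13 negative. At an unadjusted limma p under 0.05, C6, Vsig4 and the low Susd4 (at most 20.2 normalized counts) were higher at 11 weeks and none was lower, where 4.76% of all genes tested were higher. Of these genes 9 were at 0 in all libraries: the collectins Mbl1, Mbl2, Colec10 and Colec11, ficolin B (Fcnb), C8a, C8b, Cfi and C4bp. A level of at least 100 normalized counts at either age was reached by 19.

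Among the starters of the classical and lectin routes, Fcna (ficolin A, a sugar-binding lectin of macrophages) was at 4884 ± 1847 and 6890 ± 2191 normalized counts (mean ± SD over 3 libraries per age; limma adjusted p = 0.679). Colec12, a scavenger receptor of the collectin family, was at 3638 ± 255 and 3509 ± 276 (mean ± SD over 3 libraries per age; limma adjusted p = 0.957). The C1q-associated protease gene C1ra and C2 were low, at 130 ± 5.45 and 238 ± 125 and at 35.7 ± 12.2 and 113 ± 134 (mean ± SD over 3 libraries per age; limma adjusted p = 0.818 and 0.825). The other C1 protease genes were at 0 to 88.7 (C1s1), 2.8 to 19.6 (C1rb) and 0 to 20.8 (C1s2). C2 passed 100 normalized counts in 1 library only, 11-week replicate 3 (267.4). The exons of C1ra add up to 2981 bases and those of C1s1 to 3129, more than any C1q mRNA, so per base these proteases lay further below the C1q chains than the counts show.

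Of the terminal components C6, a part of the membrane attack complex, reached that level. It was at 1580, 2671 and 2303.5 normalized counts at 8 weeks and at 3814, 2747 and 3294.6 at 11 weeks. The ages did not overlap, and the log2 difference was 0.61 ± 0.26 (SE; limma adjusted p = 0.584) and 0.39 without 8-week replicate 1. C7, C8a, C8b, C8g and C9 were at 31.2 or below in every library.

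Among the receptors, Vsig4, a macrophage receptor for C3b, was at 1154 ± 472 and 2051 ± 707 normalized counts (SD, n = 3), a log2 difference of 0.85 ± 0.36 (SE; limma adjusted p = 0.578), with overlapping ages. It was 0.51 without 8-week replicate 2. Itgam, the alpha chain of complement receptor 3, which overlaps other annotated genes, was at 45513 ± 4045 and 33864 ± 15071 (mean ± SD over 3 libraries per age; limma adjusted p = 0.658), and was low in 11-week replicate 3 alone (17029.4; log2 difference -0.54, and -0.11 without it), the library in which C1qc and C3ar1 were also lowest. Itgb2, its beta chain, was at 18597 ± 2844 and 18240 ± 1620, and Itgax, the alpha chain of complement receptor 4, at 3894 ± 721 and 3793 ± 1136 (mean ± SD over 3 libraries per age; limma adjusted p = 0.979 and 0.958). C5ar2, the second C5a receptor, was at 3114 ± 546 and 2421 ± 1082 (mean ± SD over 3 libraries per age; limma adjusted p = 0.777), opposite in sign to C5ar1. Its difference of -0.46 was -0.045 without 11-week replicate 3 (1248 normalized counts). The proteins proposed to bind C1q gave log2 differences near 0: -0.03 for Cd93, 0.07 for Lrp1 and -0.08 for C1qbp. That of Calr was 0.19, with no overlap between the ages (15854.3 to 17178.5 against 18291.7 to 19300.8; limma adjusted p = 0.799).

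Among the regulators, Cr1l, which encodes the rodent membrane inhibitor Crry, was at 4126 ± 1052 and 3244 ± 669 (mean ± SD over 3 libraries per age; limma adjusted p = 0.794). Cd55, which speeds the decay of the C3-cleaving enzymes, was at 265 ± 175 and 553 ± 234 (SD, n = 3), a log2 difference of 1.26 ± 0.60 (SE; limma adjusted p = 0.627). It was 0.57 without 8-week replicate 2 and 1.76 without 8-week replicate 3. Clu, Serping1 and Cd59a were at 77.7 ± 24.5 and 244 ± 159, at 46 ± 22.2 and 109 ± 46.4 and at 80.3 ± 28.8 and 111 ± 25.6 (mean ± SD over 3 libraries per age; limma adjusted p = 0.658, 0.78 and 0.86). Clu and Serping1, like the epithelial and fibroblast sums, were lowest of the 11-week libraries in replicate 2 (89.7 and 58.5), and the part of those cells was not tested.

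**Figure D5:**
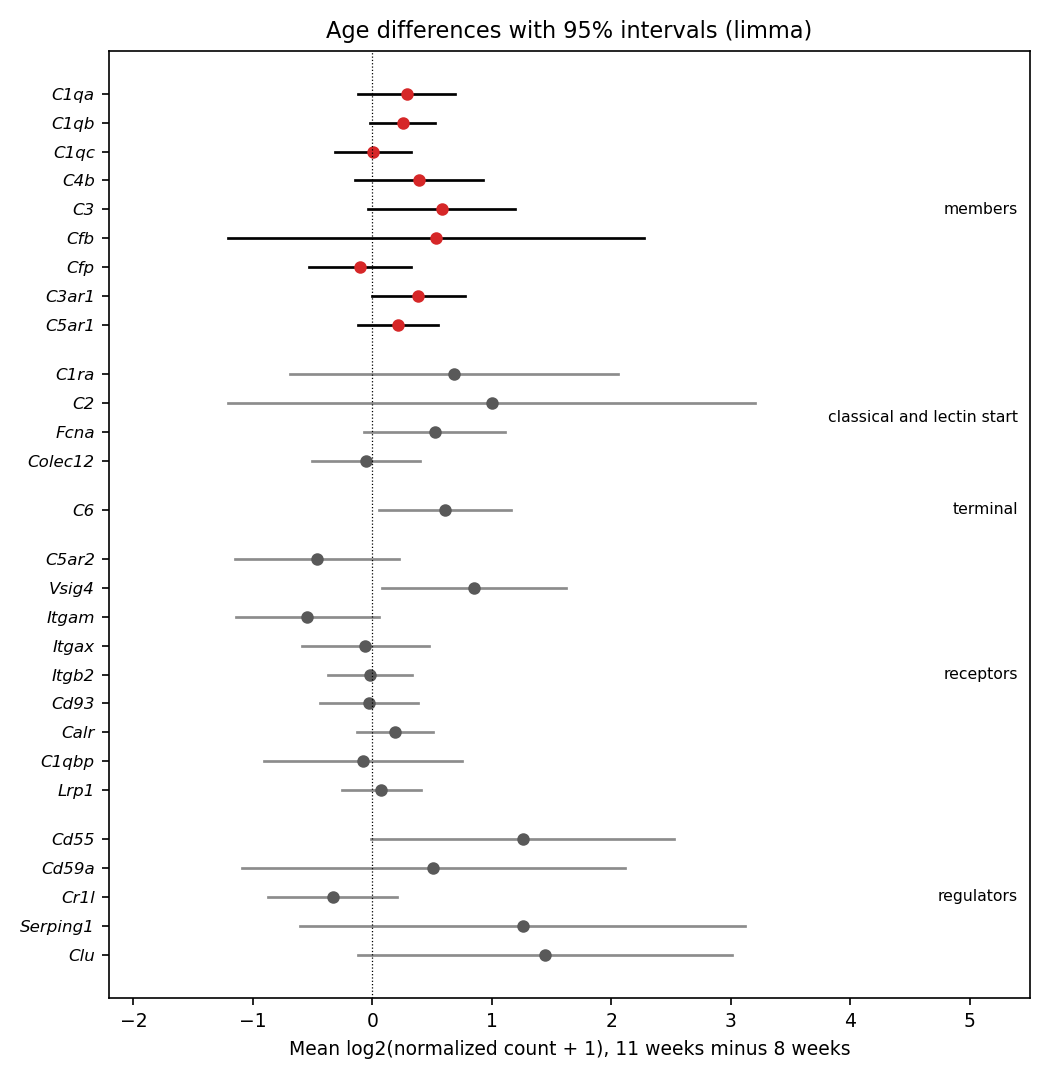
Difference of mean log2(normalized count + 1), 11 minus 8 weeks, with its 95% interval from limma (n = 3 per age), for the 9 members (red) and the 19 other complement genes with at least 100 normalized counts (grey), grouped by role. The intervals of all 9 members include 0, and C6 and Vsig4 are the genes whose intervals do not.

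Genes whose log2 values followed a member most closely across the 6 libraries were sought among 10026 genes with at least 100 normalized counts at both ages. These are descriptions over only 6 libraries that share their scaling. For C1qa they were Otud1, Lgals9 and Sgsm2 (Pearson r = 0.992, 0.991 and 0.983), each highest in 11-week replicate 1. Of the members searched C3ar1 was nearest to C1qa, at rank 123 (r = 0.848). The other C1q chains were further down, at rank 324 for C1qb (r = 0.753) and 408 for C1qc (r = 0.724). For C3 they were Gm13684, Hmgb2 and Tes (r = 0.997, 0.994 and 0.982), all lowest in 8-week replicate 3, as C3 was. For C5ar1 they were Baiap2, Ppp3cc and Gm16340 (r = 0.998, 0.983 and 0.975), with C1qb at rank 43 (r = 0.920) and C3ar1 at 3231 (r = 0.229). For Cfp they were THAP6, Rxrb and Ifi35 (r = 0.984, 0.976 and 0.976), all highest in 8-week replicate 3.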

How the data were processed

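RNA of the sorted macrophages was made into libraries with a low-input amplification kit and Nextera, per the labels. STAR 2.4, DESeq2 1.6 and GRCm38 appear in the submitters' processing notes with no role, and the sources used here name no counting tool. The values deposited by the authors are a signal: each gene's count over a library size factor. Dividing by the step that 1 read is worth gave whole reads (within 0.05 normalized counts) for 99.8% to 99.98% of nonzero values per library. In 11-week replicate 2 that step (1.01) is too close to 1 for whole values to tell reads from rounding, so its recovered reads and depth are less certain, as are the edgeR and DESeq2 results that use them. The authors' deposited table also holds their log2 fold change, linear fold ratio, p-value and adjusted p-value. Libraries of an age all differed (chi-square per degree of freedom from 116 to 332).

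The main test was limma (trend, robust) on log2(normalized count + 1) with age as the only term, for genes with a mean of at least 1 at either age, adjusted by Benjamini and Hochberg at 0.05. The edgeR quasi-likelihood test and DESeq2 were run on the recovered reads. Steps were tested on simulated data. Ratios were compared by exact permutation. Lengths, overlaps and coding sequences come from GENCODE M21 (GRCm38), in which the spans of all 9 members equal those deposited. All members were named, with the other complement genes of at least 100 normalized counts and, for C1qa, C3, C5ar1 and Cfp, the 3 genes of most similar pattern. A gene of the complement list is not reported here. Members and lists were chosen with earlier results of these data known. Python 3.11.15 was used with numpy 2.4.6, matplotlib 3.10.9 and pandas 2.3.3, and R 4.3.3 with DESeq2 1.42.0, limma 3.58.1 and edgeR 4.0.16.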

Additional observations from a re-analysis of the deposited data

How the results depend on the processing

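No member and no other complement gene passed an adjusted p of 0.05 under any of the 17 alternatives, those with edgeR and DESeq2 included, although edgeR called 14 and DESeq2 418 of all genes where limma called 11. Over all genes the count was 4 with scaling to library totals, 5 with a pseudocount of 10 and 45 with the replicate block, and 3 to 16 with 1 library left out (3 without 8-week replicate 1, 4 without 11-week replicate 1). As a check for pairing by number, deviations of same-numbered libraries correlated at -0.023, -0.0085 and -0.014 over 10727 genes, and none correlated best with its own number. With 3 libraries per age this check cannot decide whether the numbers pair the samples. At an unadjusted limma p under 0.05 C3ar1 passed with upper-quartile scaling, a pseudocount of 0.5, the replicate block and without 11-week replicate 3. C1qb passed with upper-quartile scaling and without 11-week replicate 2 or 3, C4b without 8-week replicate 3 or 11-week replicate 2, C3 without 8-week replicate 2 and C1qa without 11-week replicate 3. Of 153 differences of members under alternatives 143 kept their sign. C1qc turned to -0.083 with scaling to library totals, -0.018 with totals without mitochondrial genes and -0.0077 with TMM scaling. Leaving out 1 library, it ran from -0.13 to 0.16, Cfb from -0.012 to 0.97 and Cfp from -0.25 to 0.083. Of 323 differences of other named complement genes 304 kept their sign. C1qbp turned to 0.019 with edgeR and 0.029 with DESeq2, Lrp1 to -0.015 with library totals, and Itgb2 and Cd93 to 0.016 and 0.0079 with upper-quartile scaling. Leaving out 1 library, C1qbp ran from -0.37 to 0.32, Lrp1 from -0.0061 to 0.16, Itgb2 from -0.10 to 0.10, Cd93 from -0.20 to 0.087, Itgax from -0.29 to 0.060 and Colec12 from -0.10 to 0.010. The log2 ratio differences ran from -0.17 to 0.048 for C1qb/C1qa, from -0.15 to 0.40 for C3ar1/C5ar1 and from -0.42 to 0.67 for C3/Cfb. The cause of these turns was not tested. Depth limits Cfb most, with 50 to 239 reads per library.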
